A study of Homo sapiens with 6 samples.

Results

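The 10 genes described here are the pair of dimethylarginine dimethylaminohydrolases, DDAH1 and DDAH2, and 8 protein arginine methyltransferases, PRMT1, PRMT2, PRMT3, CARM1, PRMT5, PRMT6, PRMT7 and PRMT9. They were taken by gene symbol from 24702 genes with at least some counts in the 6 libraries, and all 10 were among the 15223 genes that passed the filter on low counts. The set was chosen by the measured difference of DDAH1 between the groups, its family members and the methyltransferases being added by name, so the levels and differences of the members between groups are given as a description. No separate test of the members was made. Where a member's call in the fit over all genes is stated, nothing is concluded from it.

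Protein arginine methyltransferases transfer methyl groups from S-adenosylmethionine to arginine side chains of histones, RNA-binding proteins and signalling proteins. Type I enzymes make asymmetric dimethylarginine, type II enzymes make symmetric dimethylarginine, and the type III enzyme PRMT7 makes monomethylarginine. When such proteins are degraded, free asymmetric dimethylarginine is released, which inhibits the nitric oxide synthases, and DDAH1 hydrolyses it to citrulline and dimethylamine.

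Messenger RNA was sequenced from Rh30 cells, an established line of alveolar rhabdomyosarcoma (a tumour of skeletal muscle character) that carries the PAX3-FOXO1 fusion. Control libraries (n = 3) and libraries labelled siDDX5 (n = 3), in which the RNA helicase DDX5 was knocked down by RNA interference, were compared. All 6 libraries come from this single fusion-positive line. The labels do not describe what the control cells received, nor the small interfering RNA, its dose or the time of harvest, and the design text calls the libraries biological replicates.

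DDX5, the targeted gene, was measured first as a check of the labels. Its level, in CPM (counts scaled to a common library total with TMM factors), was 1352, 1434 and 1137 in control replicates 1, 2 and 3 and 549, 504 and 396 in siDDX5 replicates 1, 2 and 3. The siDDX5 mean was 2.71-fold lower (log2 -1.44, SE 0.15, edgeR quasi-likelihood adjusted p = 0.0106, 1.03e-16 to 0.0953 over 15 alternatives), and every siDDX5 library lay below every control library. The libraries held 18202402 to 26156858 estimated counts, and each siDDX5 library was shallower than each control library. A count of 3 corresponded to 0.115 to 0.165 CPM, a floor that covers counting error only. The 8 myogenic markers were all measured, with summed levels of 1265 to 1784 CPM in control and 1328 to 1441 CPM in siDDX5 libraries. Of the markers of other cell types, the epithelial list (4 genes) summed to 3.19 to 4.68 CPM, the endothelial list (4 genes) to 11.3 to 15.8 CPM, and the fibroblast list (6 genes, mainly COL3A1) to 109.7 to 184 CPM over the 6 libraries. EPCAM, KRT18, CDH5, KDR, CD3E, LUM and PDGFRA had at most 7 counts in any library. None of the markers tested was called. PECAM1 had 10.3 to 14.8 CPM over the 6 libraries and PTPRC 0.541 to 2.31 CPM (log2 -0.69, SE 0.40). CDH1, at 1.32, 2.04 and 1.48 CPM in the control libraries and 2.52, 2.17 and 2.64 CPM with siDDX5, was higher without overlap (log2 0.60, SE 0.26, edgeR adjusted p = 0.42). CD14, at 0.505, 0.509 and 0.371 CPM against 1.09, 0.704 and 0.77 CPM, was also higher without overlap (log2 0.89, SE 0.34, edgeR adjusted p = 0.366). Their part in the results below was not tested.

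Over all 15223 genes, 25 passed an adjusted p of 0.05 in edgeR's quasi-likelihood test (0.164%), 8 of them higher in siDDX5 (0.0526%) and 17 lower (0.112%). With the replicate number as a block, 395 genes passed (2.59%), 174 higher (1.14%) and 221 lower (1.45%). Of the 10 members 1, DDAH1, was among the called genes in both fits, and nothing is read from that count because the set was built around it. With 1 library left out, 0 to 15 genes passed, of which at most 13 were among the 25. No gene passed without control replicate 1 (1244 at an unadjusted p under 0.05) or without siDDX5 replicate 1 (2042), DDX5 passed without control replicate 2, control replicate 3 or siDDX5 replicate 3, and DDAH1 passed in none of these 6 fits. None of the 8 methyltransferases was called in either fit. In 18.0% of all genes the CPM values of the groups did not overlap (8.87% higher and 9.16% lower in siDDX5), and DDAH1 was the single member of which this held.

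DDAH1 (ENSG00000153904.19, chr1:85318481-85578363, minus strand, GRCh38) has several annotated starts, and nearly all its counts in Rh30 were assigned to transcripts of a pair of them. The distal start is at the far end of the gene and the proximal start lies 113110 bases downstream of it, inside the gene. The distal transcripts have separate first and second exons, and those annotated as protein coding hold 546 coding bases, whereas the proximal transcript ENST00000284031.13 holds 855, its first exon adding coding sequence. All the later exons, from chr1:85358748-85358847 onwards, are shared apart from a few bases at the end of the last. Sequence upstream of the outermost annotated position of each start is shown because the 2 starts are compared below. The distal stretch ends next to the start of ENST00000426972 at position 85578363, a transcript with 2.56% to 5.06% of DDAH1 counts per library. The other distal transcripts, with most of the distal counts, start further downstream at position 85578250, and the bases between, which are exonic in ENST00000426972, are not shown. The sequence is on the minus strand, 5′ to 3′, from RefSeq on GRCh38.p14, with CG dinucleotides in capitals, at chr1:85465160-85465409 for the proximal and chr1:85578364-85578450 for the distal start.
DDAH1 proximal start: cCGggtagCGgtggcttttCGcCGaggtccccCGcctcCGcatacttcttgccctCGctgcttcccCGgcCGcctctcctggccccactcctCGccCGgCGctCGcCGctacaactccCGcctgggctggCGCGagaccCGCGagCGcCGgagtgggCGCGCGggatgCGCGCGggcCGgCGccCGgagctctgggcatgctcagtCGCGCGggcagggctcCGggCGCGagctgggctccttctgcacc
DDAH1 distal start: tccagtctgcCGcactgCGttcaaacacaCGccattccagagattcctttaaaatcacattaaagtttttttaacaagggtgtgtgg
The proximal stretch of 250 bases holds 36 CG dinucleotides and the distal stretch of 87 bases holds 3. In full windows of 300 bases around the RefSeq starts (250 before and 50 after), the proximal window had 42 CG dinucleotides and 75.3% G or C, and 5.85% of all 35116 such windows had at least as many. The distal window had 6 and 49.7%, and 36.8% of windows had at most as many. The median over all windows was 14 CG dinucleotides.

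Both hydrolases were measured in every library, and DDAH1 had the higher TPM of the pair in each. The CPM values of DDAH1 were 161, 145 and 147 in control and 250, 254 and 252 in siDDX5 libraries. The 3 siDDX5 libraries lay close together and all above the 3 control libraries. The means were 151 ± 8.63 (SD, n = 3) and 252 ± 1.81 (SD, n = 3) CPM, a 1.67-fold difference (log2 0.74, SE 0.10). Within libraries of the same replicate number, the log2 difference was 0.64, 0.81 and 0.78. Among all genes tested this was the log2 difference of rank 136 from the top. Per transcript length the direction was the same, and DDAH1 stood at 76.6, 69.2 and 72.4 TPM, a level scaled for transcript length and library total, in control and 125, 111 and 119 TPM in siDDX5 libraries, again without overlap, where TPM values above those of every control library were found for 5.56% of the genes with a mean of at least 1 TPM. In bulk RNA, more RNA per cell and more cells with the RNA cannot be told apart.

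DDAH2 (ENSG00000213722.8, chr6:31727038-31730617, minus strand) lies in the major histocompatibility region, and its role in hydrolysing asymmetric dimethylarginine is less settled than that of DDAH1. Its CPM values were 35.3, 22.9 and 23.4 in control and 31.2, 32.0 and 27.9 in siDDX5 libraries. The groups overlapped, because control replicate 1 exceeded all 3 siDDX5 libraries. The means were 27.2 ± 7.0 (SD, n = 3) and 30.4 ± 2.18 (SD, n = 3) CPM, with a log2 difference of 0.16 (SE 0.17), and the differences by replicate number were -0.18, 0.48 and 0.25. DDAH1 made up 72.3%, 77.3% and 78.6% of the summed TPM of both hydrolases in control and 81.4%, 81.3% and 83.7% in siDDX5 libraries. Nearly all reads of DDAH2 were assigned to transcripts on alternative haplotype copies of the region (60 of its 70 transcripts). These copies held 99.2%, 98.7% and 99.0% of its counts in control and 92.4%, 98.8% and 98.3% in siDDX5 libraries, so a gene sum over the primary assembly alone would miss it. The split between identical copies is set by the quantifier and is not read here as usage.

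**Figure D1:**
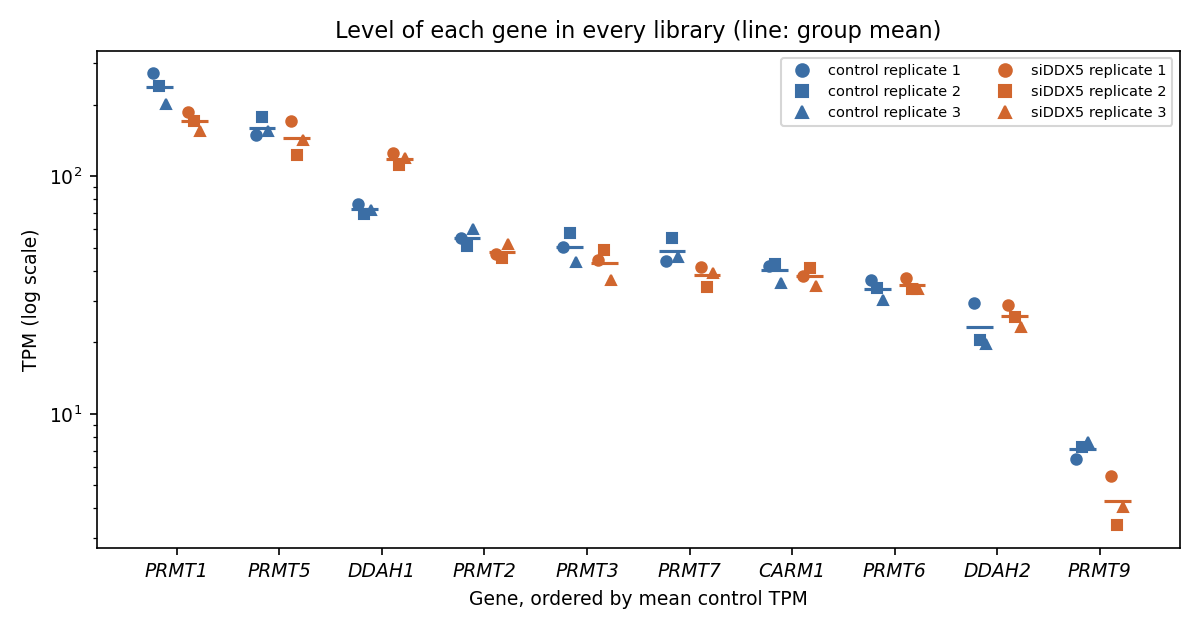
TPM of each member in the 6 libraries on a log scale, with genes ordered by mean control TPM, control in blue, siDDX5 in orange, marker shape for the replicate number and a line at each group mean. DDAH1 stands at 69.2 to 76.6 TPM in control and 111 to 125 TPM in siDDX5 libraries, and PRMT1, PRMT7 and PRMT9 are the other members whose groups do not overlap on this scale, all lower in siDDX5, where 14.8% of the 14871 genes with a mean of at least 1 TPM did not overlap (9.23% lower and 5.56% higher).

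The estimated levels of both DDAH1 starts were higher in siDDX5 libraries. Reads of the exons that the starts share were divided between them by the quantifier, so their values are not separate observations. Transcripts of the distal start summed to 91.1, 84.1 and 87.6 CPM in the control libraries and 153, 146 and 152 CPM with siDDX5, a ratio of means of 1.71. The proximal transcript had 69.4, 60.4 and 59.3 CPM in the control libraries and 96.8, 107 and 100.1 CPM with siDDX5, a ratio of 1.61. Neither start had a control library that reached a siDDX5 library. The distal start held 56.7%, 58.1% and 59.6% of DDAH1 counts in control and 61.1%, 57.7% and 60.2% in siDDX5 libraries, so that its share overlapped between groups (58.1% ± 1.43 and 59.6% ± 1.77, SD, n = 3 each). A remaining start further downstream, of ENST00000633113, held 0.079% to 0.221% of counts in every library.

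The division of distal counts among its 3 transcripts followed the replicate number and not the group. ENST00000535924, annotated as protein coding, held 0.432% and 1.28% of distal counts in control replicates 1 and 2, and at most 1.32% in siDDX5 replicates 1 and 2. In replicate 3 it held 55.8% in control and 39.8% in siDDX5. Its partner ENST00000483110, annotated as a processed transcript, was correspondingly at 90.5% to 91.6% in the libraries of replicates 1 and 2 and lower in both libraries of replicate 3, with 55.9% in the siDDX5 library. The pair have the same first 6 exons and differ in this annotation by the last 4 bases of the final exon, which ends at position 85318485 in one and 85318481 in the other. The sum over the start includes both transcripts, whereas the value of either alone carries this split.

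**Figure D2:**
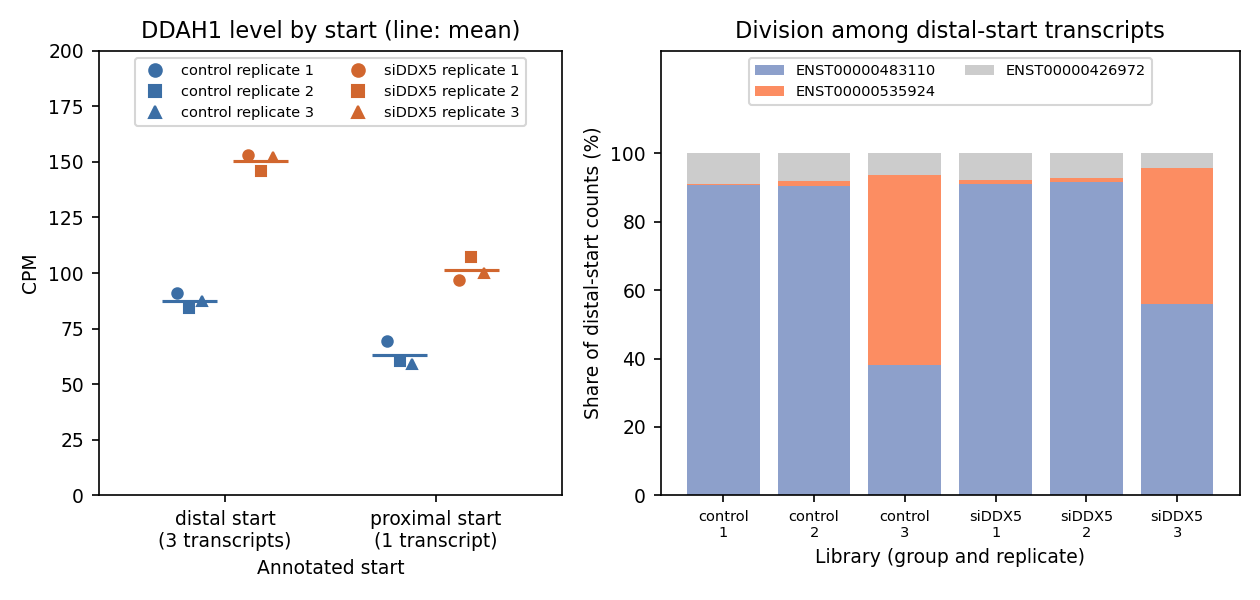
Left, summed CPM of DDAH1 transcripts from the distal start (3 transcripts) and the proximal start (1 transcript) in each library, with group means as lines. Right, share of distal-start counts on each of its 3 transcripts by library, where ENST00000535924 holds 55.8% and 39.8% in the replicate 3 libraries of the groups and at most 1.32% elsewhere.

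In control cells the levels per transcript length ran, from highest to lowest, PRMT1, PRMT5, DDAH1, PRMT2, PRMT3, PRMT7, CARM1, PRMT6, DDAH2 and PRMT9. The 3 control libraries of neighbouring genes overlapped for PRMT2 with PRMT3, PRMT3 with PRMT7 and CARM1 with PRMT6, and for no other neighbours. PRMT1 and PRMT5, the main type I and type II enzymes of most cells, together made up 64.1%, 62.7% and 61.6% of the summed methyltransferase TPM in control and 62.5%, 58.7% and 59.8% in siDDX5 libraries. The sum itself was 654, 663 and 579.9 TPM in control and 571, 501 and 497 TPM in siDDX5 libraries. All 3 siDDX5 sums lay below the lowest control sum on this scale. Of the 14871 genes with a mean of at least 1 TPM, 9.23% were lower in siDDX5 without overlap and 5.56% higher. Those are shares of single genes, and no such share was computed for sums of genes. In CPM the sums overlapped between groups, at 674, 623 and 549 in the control libraries and 538, 628 and 513 with siDDX5.

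PRMT1 (ENSG00000126457.21, chr19:49675786-49689029, plus strand), which makes most of the asymmetric dimethylarginine in mammalian cells, had 229, 176 and 154 CPM in the control libraries and 135, 164 and 124 CPM with siDDX5. The groups overlapped between siDDX5 replicate 2 and control replicate 3, and control replicate 1 was the highest library. The means were 186 ± 38.6 (SD, n = 3) and 141 ± 20.5 (SD, n = 3) CPM, a log2 difference of -0.40 (SE 0.16), with -0.76, -0.10 and -0.31 by replicate number. This was the most negative log2 difference among the members, and 7.47% of all genes had one at or below it. On the TPM scale, which corrects for transcript length, PRMT1 was at 271, 239 and 202 in control and 187, 171 and 155 in siDDX5 libraries, and there the groups did not overlap, as for 9.23% of the genes with a mean of at least 1 TPM in the lower direction. The TPM ratio of DDAH1 to PRMT1 was 0.283, 0.290 and 0.358 in control and 0.669, 0.648 and 0.771 in siDDX5 libraries. The set was chosen by the difference of DDAH1, and PRMT1 had the most negative difference of the members. A higher ratio with siDDX5 follows from those values and is no separate result.

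Most PRMT1 counts fell on ENST00000391851.8 (71.7% ± 4.36 in control and 67.2% ± 2.85 in siDDX5, SD, n = 3 each). ENST00000454376.6 has an additional exon of 54 bases at chr19:49679872-49679925. It also has a different first exon, starting at position 49677272, so its share cannot be assigned to the additional exon alone. Of the counts on these transcripts together, the form with the additional exon held 16.4%, 16.2% and 13.8% in control and 18.3%, 23.1% and 23.0% in siDDX5 libraries. Its share was higher in every siDDX5 library, while its own CPM overlapped between groups (33.8, 22.7 and 18.0 in control, 20.7, 34.1 and 23.6 in siDDX5). Its share of all PRMT1 counts did not overlap either, as for 14.5% of transcripts over all genes. The stretch upstream of the annotated RefSeq start of PRMT1 that lies outside exons is shown for comparison with DDAH1, with CG dinucleotides in capitals. It is on the plus strand at chr19:49677021-49677072 (GRCh38.p14). The gene is annotated from position 49675786, so the stretch lies inside it. Unlike the DDAH1 stretches it does not adjoin a start given here, which limits the comparison. The stretch ends before the start of ENST00000391851.8 at position 49677152 and the RefSeq start at position 49677271. The bases between are not shown.
PRMT1 start: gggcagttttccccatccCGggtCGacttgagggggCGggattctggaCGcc
It holds 4 CG dinucleotides in 52 bases, and the full 300-base window holds 22. RefSeq windows were found for all 10 members, 16 in total. The PRMT7 windows overlap each other, as do some of the DDAH2 windows, so the same bases can be counted more than once. On either strand, GGGCGG was present in 11 of the 16 (45.0% of all windows), CCAAT in 2, those of PRMT1 and PRMT5 (34.6%), and TATAAA in 1, at the little-used downstream DDAH1 start (11.5%). Matches of different motifs can share letters, and a match describes the sequence only.

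Among the other type I enzymes, PRMT3, which methylates a ribosomal protein, had 56.3, 65.5 and 47.3 CPM in the control libraries, against 48.8, 61.1 and 41.8 CPM with siDDX5. The ranges overlapped widely, although each siDDX5 library was lower than the control library of the same number (log2 -0.21, -0.10 and -0.18; fitted -0.16, SE 0.16). PRMT2, a weakly active enzyme with an SH3 domain, had 53.3, 47.7 and 57.5 CPM in the control libraries, against 44.6, 53.0 and 54.5 CPM with siDDX5, with a log2 difference of -0.06 (SE 0.12). CARM1, a coactivator that methylates histone H3, had 72.7, 74.7 and 61.2 CPM in the control libraries and 60.4, 81.1 and 57.5 CPM with siDDX5, with a log2 difference of -0.07 (SE 0.15). PRMT6, a nuclear enzyme that also methylates histone H3, showed the reverse sign at 0.08 (SE 0.11), with 64.4, 58.0 and 51.3 CPM in the control libraries and 62.3, 63.3 and 58.4 CPM with siDDX5. In each of these 4 genes the groups overlapped and the difference was no larger than its standard error at the precision given. On the TPM scale they ranged from 30.1 to 59.8 in control and from 33.5 to 52.1 in siDDX5 libraries.

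The type II enzyme PRMT5, which acts with WDR77 on Sm proteins and histones, had 163, 163 and 146 CPM in the control libraries and 153, 171 and 147 CPM with siDDX5. Its group means were 157 ± 9.83 and 157 ± 12.2 CPM (SD, n = 3 each), and the log2 difference was -0.00 (SE 0.11). PRMT9, the other type II enzyme, which methylates a splicing factor, was the lowest of the 10 genes. It had 8.44, 8.14 and 7.34 CPM in the control libraries and 8.15, 5.36 and 5.72 CPM with siDDX5, with a log2 difference of -0.31 (SE 0.20). Replicate 1 hardly differed between groups (log2 -0.05) while replicates 2 and 3 differed by -0.60 and -0.36. Its TPM values, 6.48, 7.26 and 7.61 in control and 5.46, 3.4 and 4.04 in siDDX5 libraries, did not overlap. PRMT7 had 27.4, 31.0 and 24.7 CPM in the control libraries and 25.1, 29.8 and 24.4 CPM with siDDX5 (log2 -0.07, SE 0.14). Its TPM values did not overlap either, with 44.1, 55.2 and 45.8 in control and 41.6, 34.3 and 39.1 in siDDX5 libraries, so that PRMT7 overlapped between groups by count and not by TPM. For both genes the background is the 9.23% of genes that were lower without overlap in TPM.

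**Figure D3:**
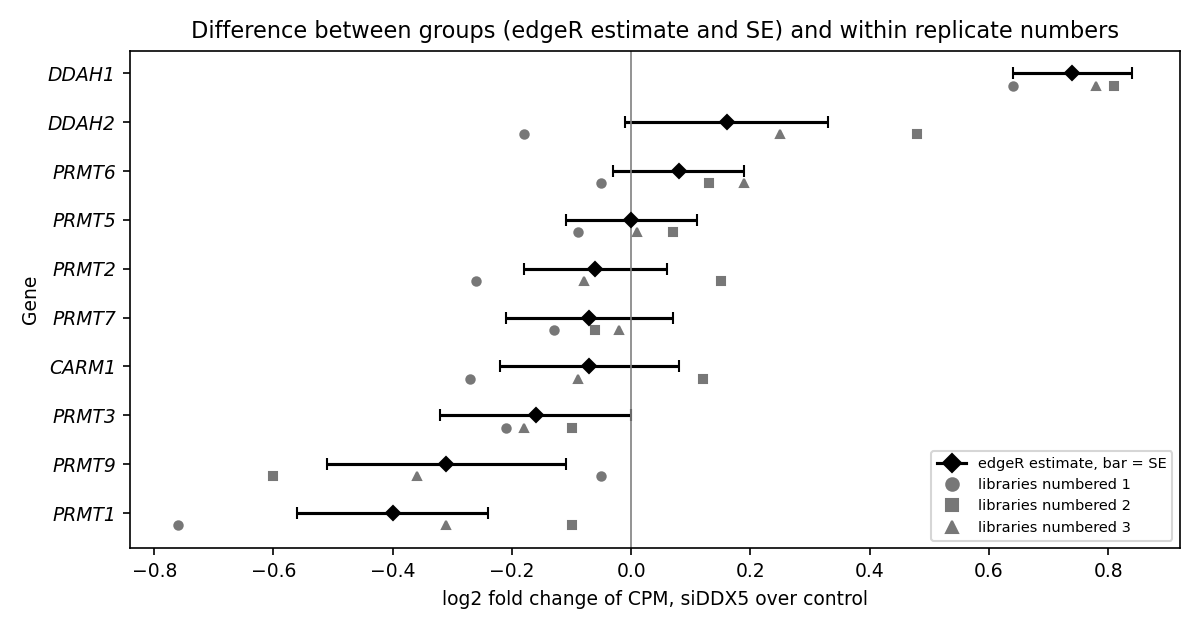
Log2 difference of CPM, siDDX5 over control, for each member: diamonds are edgeR estimates with bars of 1 SE, and grey symbols are the differences within libraries of the same replicate number. DDAH1 lies at 0.64 to 0.81 by replicate number, and the methyltransferases lie between -0.40 and 0.08 in the fit.

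Taken as a set, 3 of the 10 members had a log2 difference above 0 (DDAH1, DDAH2 and PRMT6) and 7 below, with a median of -0.06 and a range of -0.40 to 0.74. Of the 8 methyltransferases, 1 was above and 7 below 0, with a median of -0.07. Over all genes tested 7557 were above and 7666 below 0, with a median of -0.00. Several of the negative values were smaller than their standard errors, and the signs of PRMT2, CARM1, PRMT5 and PRMT7 turned under some alternatives.

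The transcripts of the remaining enzymes were mixed in different degrees. PRMT6 came almost wholly from the single-exon ENST00000370078.1 (99.4% ± 0.503 of counts in control and 99.7% ± 0.202 in siDDX5, SD, n = 3 each). PRMT5 had 79.5% ± 1.91 and 83.0% ± 2.52 of its counts on ENST00000324366.13 (SD, n = 3 each). PRMT9 had 86.9% ± 6.27 and 90.5% ± 6.92 on ENST00000322396.7 (SD, n = 3 each). Each of these genes therefore had a single predominant transcript in both groups. CARM1 was divided between a longer coding form, ENST00000327064 (1824 coding bases), and ENST00000344150 (1755), which lacks a 69-base exon at chr19:10921375-10921443. The shorter form held 58.4%, 43.2% and 51.6% of the counts of the pair in control and 59.8%, 53.4% and 55.6% in siDDX5 libraries, with overlap.

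PRMT7 and PRMT2 were divided among more forms. PRMT7 has 27 transcripts in the tables, and 29.2% ± 5.9 in control and 25.5% ± 2.18 in siDDX5 libraries fell on forms annotated as retained introns (SD, n = 3 each). Its ENST00000441236.2 held 23.2% ± 5.39 in control and 38.3% ± 9.1 in siDDX5 libraries (SD, n = 3 each), without overlap between the groups. PRMT2 had 35.6% ± 2.63 and 31.5% ± 2.98 on retained-intron forms (SD, n = 3 each), and its protein-coding ENST00000355680.8 held 34.8%, 28.6% and 35.1% in control and 40.6%, 46.5% and 39.7% in siDDX5 libraries, again higher without overlap. CARM1 forms annotated for nonsense-mediated decay held 11.0%, 13.9% and 15.7% in control and 10.9%, 4.28% and 10.8% in siDDX5 libraries, so that the groups were separated by the step between 11.0% and 10.9%. In PRMT3, the decay-annotated ENST00000330796.9 varied from 0% in control replicate 3 to 20.8% in siDDX5 replicate 3. Altogether the share of 9 of the 69 member transcripts that averaged 10 counts or more did not overlap between groups (13.0%), against 14.5% of 57375 transcripts over all genes, a proportion near the background. The 9 include ENST00000437889.6, a DDAH2 haplotype copy, and the 69 include further DDAH2 copies with equal shares. The split among those copies is set by the quantifier and is not read as usage.

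The other genes of the pathway were described by 6 lists of 117 genes, of which 105 were tested. None was called in edgeR's quasi-likelihood test, 11 (10.5%) had an unadjusted p under 0.05 against 11.4% of all genes, 1 was called with the replicate block and 2 in the DESeq2 Wald test. Their median log2 difference was 0.05, with 67 above and 38 below 0. CPM values did not overlap in 16 (15.2%, against 18.0% of all genes).

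The 11 partners and regulators of the methyltransferases were all tested, with none called, 10 above and 1 below 0 and a median log2 difference of 0.17. LSM11, a U7 small nuclear ribonucleoprotein component that joins the PRMT5 complex, had 19.1, 17.3 and 22.9 CPM in the control libraries and 31.3, 27.8 and 35.5 CPM with siDDX5. Every siDDX5 library exceeded every control library (log2 0.68, SE 0.15). Its edgeR adjusted p was 0.118 without and 0.0119 with the replicate block, and 0.00371 in the DESeq2 Wald test, with a range over the 15 alternatives of 0.00371 to 0.515. TOB1, an antiproliferative protein of the BTG family, had a log2 difference of 0.37 (SE 0.14) and an edgeR adjusted p of 0.346. Of the PRMT5 partners, WDR77 had a log2 difference of 0.21 (SE 0.13), and CLNS1A had 186 ± 4.22 and 207 ± 13.0 CPM in control and siDDX5 libraries (SD, n = 3 each).

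Of 3 other arginine methyltransferases, METTL23 (16.7 and 20.3 CPM in the group means) and the mitochondrial NDUFAF7 (26.1 and 26.9 CPM) were tested and not called. PRMT8, a membrane-bound enzyme of the nervous system, had at most 3 counts in any library.

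Arginine and nitric oxide handling, into which the DDAH reaction feeds, had 19 of 22 genes tested, none called, 9 above and 10 below 0, and a median log2 difference of -0.04. No gene of this list had an unadjusted p under 0.05. The neuronal synthase NOS1 had 50.9, 42.0 and 34.6 CPM in the control libraries and 57.6, 43.9 and 40.0 CPM with siDDX5. NOS3 stood at 1.63 ± 0.25 and 1.33 ± 0.0882 CPM (SD, n = 3 each) and NOS2 had no counts in any library. AGXT2, the other enzyme that metabolises asymmetric dimethylarginine, had at most 2 counts. QDPR and GCH1, enzymes of tetrahydrobiopterin recycling and synthesis, had log2 differences of -0.31 and -0.29 with edgeR adjusted p of 0.592 and 0.582.

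The supply and use of S-adenosylmethionine had 18 of 20 genes tested, none called, 12 above and 6 below 0, and a median of 0.10. NNMT, a nicotinamide methyltransferase that consumes S-adenosylmethionine, had 107 ± 8.56 CPM in the control libraries and 145 ± 25.6 CPM with siDDX5 (SD, n = 3 each; log2 0.43, SE 0.14, edgeR adjusted p = 0.288). MTR, methionine synthase, had 191 ± 25.1 and 155 ± 27.8 CPM (SD, n = 3 each; edgeR adjusted p = 0.505). MAT2A, which makes S-adenosylmethionine, had 607 ± 86.0 and 586 ± 41.6 CPM, and MTAP, often deleted in tumours and needed to clear an inhibitor of PRMT5, had 60.1 ± 4.72 and 64.0 ± 7.88 CPM (SD, n = 3 each).

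Methylarginine readers and removers had 14 of 20 genes tested, none called, 7 above and 7 below 0, and a median of -0.02. SMN1, whose protein reads symmetric dimethylarginine, had 23.7 ± 8.99 and 40.0 ± 24.8 CPM (SD, n = 3 each), but its division from the near-identical SMN2 is uncertain, and its log2 difference of 0.76 was -0.01 over the primary assembly alone. PADI3, a peptidylarginine deiminase, had 25.9 ± 14.5 and 19.5 ± 11.3 CPM (SD, n = 3 each; edgeR adjusted p = 0.796).

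All 41 proteins listed as arginine-methylated substrates were tested, none called, with 27 above and 14 below 0 and a median of 0.04. SERBP1, an mRNA-binding protein, had 625 ± 37.4 and 817 ± 65.2 CPM (SD, n = 3 each; log2 0.39, SE 0.11, edgeR adjusted p = 0.236). SUPT5H, an elongation factor, had 144 ± 12.4 and 112 ± 8.1 CPM (SD, n = 3 each; log2 -0.37, SE 0.11, edgeR adjusted p = 0.252). Both had groups without overlap. In SERBP1 the DESeq2 Wald test gave an adjusted p of 0.0458, below the threshold, in a range of 0.0458 to 0.506 over its 15 alternatives.

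**Figure D4:**
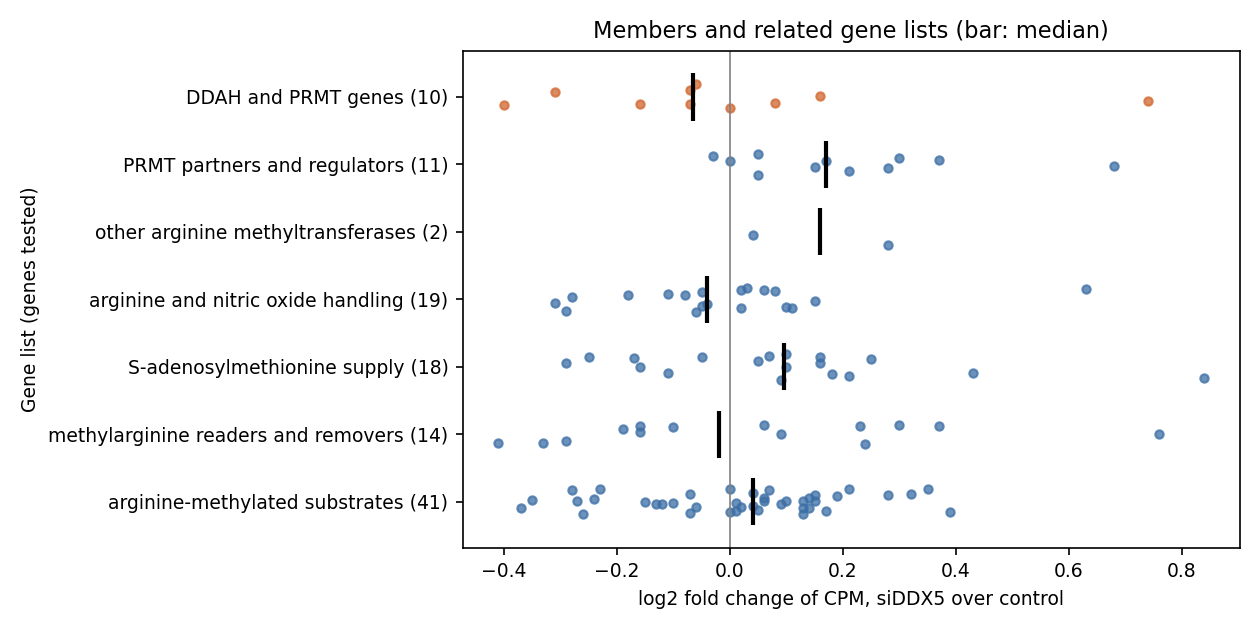
Log2 difference of CPM, siDDX5 over control, for each tested gene of the members and of the 6 lists, with a black bar at the median. DDAH1 is the member at 0.74, and the medians of the lists lie between -0.04 and 0.17.

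The genes whose profile over the 6 libraries was most like that of DDAH1, by the root-mean-square difference of log2 CPM deviations among 10993 other genes, were SPARC, MTMR9 and MAPK6, with differences of 0.082, 0.082 and 0.086. SPARC, a matrix glycoprotein, had mean levels of 599 and 969 CPM, MTMR9, a myotubularin-related protein, 42.7 and 65.1 CPM, and MAPK6, an atypical MAP kinase, 116 and 182 CPM in control and siDDX5 libraries. For DDAH2 the nearest were APBB1, COL1A1 and GBP2, with differences of 0.038, 0.072 and 0.072. The group means of APBB1 were 6.2 and 6.67 CPM. All these genes were picked by likeness over the same 6 libraries, so a like difference between groups follows from the choice.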

How the data were processed

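Messenger RNA of 6 Rh30 libraries (3 control, 3 siDDX5, grouped by the labels) was analysed from 1 deposited transcript table per library. Libraries were made with a stranded kit, per the labels' protocols. Per the submitters' processing notes the tools were bcl2fastq 2.20, FastQC 0.11.8, cutadapt 1.11 and kallisto 0.46.0 with GRCh38. The annotation, filters and strand setting are not given in the sources used here. The deposited estimated counts are not normalized, and reads shared by transcripts were divided among them by the authors' quantifier. The deposited TPM values had been corrected by the authors for transcript length and library depth.

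Of 188753 transcripts, 169797 were joined to genes by identifier in GENCODE 29, 15296 on alternative copies by symbol and 890 by position, which took in 99.59% to 99.63% of counts. Estimated counts were summed per gene, rounded, filtered with filterByExpr, TMM-scaled and tested with edgeR 4.0.16 (R 4.3.3) quasi-likelihood, group only, Benjamini-Hochberg over 15223 genes. The division of reads between transcripts, and between near-identical genes such as SMN1 and SMN2, adds an uncertainty that the fits do not include. Alternatives were DESeq2 1.42.0, limma 3.58.1 (limma-trend on log2(TPM + 1) or log2(TPM + 0.1)), other filters, scalings and joins, leaving out each library, and the replicate block. The code was tested on simulated data with 200 changed genes.

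The replicate numbers come from the titles. Deviations of log2 CPM from the group mean correlated at 0.21, 0.27 and 0.58 between same-numbered libraries over 15223 genes. These deviations cancel within each group, so covariances between differently numbered libraries of the groups were negative on average. Their separate correlations were not computed, and no test of pairing by number was run. The labels do not say that the numbers mark a shared batch. The main fit therefore used the group only, and the replicate block was an alternative. The biological coefficient of variation was 15.7%, and 10.2% with the block.

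The members and gene lists were chosen with earlier results of these data known. Named genes are the members, DDX5, per list up to 3 called genes or otherwise the 2 largest differences at a mean of at least 5 CPM, and the 3 genes nearest in profile to each hydrolase. NOS1, NOS2, NOS3, AGXT2, WDR77, CLNS1A, MAT2A, MTAP, PRMT8, CDH1, CD14, PTPRC and PECAM1 were named after their values were seen, as were the transcripts described. The summed level of the leukocyte markers is not reported here.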

Additional observations from a re-analysis of the deposited data

How the results depend on the processing

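DDAH1 was above 0 in all 15 alternatives (log2 0.70 to 0.79), which is a description, since the members were chosen by its difference. The count of called members was 0 instead of 1 with limma-trend at either pseudocount, with length-scaled TPM counts, and without any of the 6 libraries in turn (range 0 to 0). The count over all genes was 25, and it came to 395 with the replicate block, 136 when no filter was used, 297 in the DESeq2 Wald test, 2 with length-scaled TPM counts, 1 with limma-trend at either pseudocount, and 0 to 15 without 1 library. It was 0 without control replicate 1 (1244 genes at an unadjusted p under 0.05) and without siDDX5 replicate 1 (2042), by edgeR. The pathway lists had 2 called genes in the DESeq2 Wald test and 1 with the replicate block, instead of 0. The block changed no other call named here. The cause of these changes was not tested.

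PRMT1 (-0.53 to -0.22), PRMT3 (-0.32 to -0.03) and PRMT9 (-0.74 to -0.20) kept their sign in every alternative run and were never called. DDAH2 (0.05 to 0.39) kept its sign in the 14 alternatives that test it, since the primary-assembly join leaves it untested. Signs turned over the primary assembly for SMN1 (-0.01), and without 1 library for PRMT2 (-0.12 to 0.03 over the 6 libraries, with 0.01 without control replicate 3 and 0.03 without siDDX5 replicate 1), CARM1 (-0.24 to 0.04, the highest without siDDX5 replicate 3), PRMT7 (-0.16 to 0.03, the highest without control replicate 2) and NDUFAF7 (-0.03 to 0.10, the lowest without siDDX5 replicate 3). PRMT5 stood at 0.01 with DESeq2 size factors or the Wald test, 0.00 over the primary assembly, and -0.06 to 0.05 without 1 library, with 0.03, 0.03, 0.02 and 0.05 without control replicate 1, control replicate 2, siDDX5 replicate 1 and siDDX5 replicate 3. Over the 15 alternatives the lowest values were -0.15 for PRMT5, -0.20 for PRMT2 and -0.33 for PRMT7. Limma-trend on log2(TPM + 0.1) gave all of these, and length-scaled TPM counts gave -0.10, -0.15 and -0.29.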
